A study of Rattus norvegicus with 24 samples.

Results

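The comparison of DAAO with control in the left ventricle used 12 of the 24 libraries of the series, 6 labelled CTL and 6 labelled DAAO, and the 14041 of 32883 deposited Ensembl gene identifiers whose mean normalized count over these 12 libraries was at least 10. Each library was made from left ventricular tissue with the septum of a rat of strain WI. CTL is read as control. DAAO commonly stands for the enzyme D-amino acid oxidase, and the series is titled as a study of heart failure induced chemogenetically. The labels give no vector, promoter, dose, duration, age or sex, and do not say what the CTL rats received, so the difference described is that between the labelled groups. Libraries are named by group letter and animal number, as in the deposited table.

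D-amino acid oxidase converts D-amino acids to imino acids and releases hydrogen peroxide as it does so. Expressed in heart muscle cells and supplied with its substrate, it raises peroxide inside those cells on demand, which is the principle of chemogenetic oxidative stress. The left ventricle pumps blood to the body, and much of its messenger RNA encodes contractile and mitochondrial proteins.

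The genes could not be given their names. The deposited table identifies genes by Ensembl number alone, and the RefSeq gene table used here (assembly GRCr8, 47357 genes) holds no Ensembl number, so it matched 0 of the 32883 identifiers. Cardiac functions, cell types, the labelled tissue and the expression of the enzyme itself were therefore not checked against marker genes, and no promoter or protein sequence was assigned. Genes are described by level, size of change and animal, and 4 are given by identifier: the 2 largest rises and the 2 largest falls among called genes whose groups did not overlap and whose normalized count averaged at least 1000. They were picked for their change in this comparison, so their separation and adjusted p, which is over all genes tested, describe them and are no further support for it. In bulk tissue, fewer cells of a type and less RNA per cell cannot be told apart.

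A gene is called here when the limma test of log2(normalized count + 1) gave a Benjamini-Hochberg adjusted p under 0.05. By that rule 37.3% of all 14041 genes were called, 17.3% higher and 20% lower in DAAO (2430 and 2805 genes). The direction of the majority depends on the scaling: with all libraries at equal totals, 4325 genes were higher and 1631 lower. Recovered reads ranged from 15363539 to 23263897 per library. Control libraries C_7000 and C_7005 stood apart from the 4 other controls. With both left out 6704 genes were called, 3403 higher and 3301 lower. Without C_7005 alone 6471 genes were called, and without C_7000 alone 5084, fewer than with all libraries. Both were singled out in these data, so a gain in calls without them is no further support for a group difference.

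Among called genes with a mean of at least 1000 and groups apart, the largest rise was that of ENSRNOG00000008176, the 24th most abundant gene over the 12 libraries. Its normalized count was 8709 in C_7000, 13340 in C_7005, 2489 in C_7118, 7757 in C_7120, 9781 in C_7121 and 4370 in C_7123. In the DAAO libraries it was 113614 in D_7135, 78553 in D_7137, 72655 in D_7138, 65222 in D_7142, 62067 in D_7143 and 147787 in D_7146. Every DAAO library lay above every CTL library, the lowest DAAO value being 4.65 times the highest CTL value, which was that of C_7005. The group means were 7741 ± 3883 and 89983 ± 33832 (SD, n = 6 each), an 11.6-fold difference of means. On the log2 scale limma estimated a change of 3.66 with an SE of 0.37 (limma adjusted p = 1.83e-05). This gene also had the largest gain in mean normalized count of all genes tested, 82242, which was 5.19% of all gains.

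ENSRNOG00000003772 rose by a similar factor from a much lower level, and its fold change had the smallest SE of the 4. It reached a mean of 1000 through the DAAO libraries alone. Its normalized count was 122 in C_7000, 250 in C_7005, 200 in C_7118, 180 in C_7120, 276 in C_7121 and 169 in C_7123. In the DAAO libraries it was 2265 in D_7135, 3139 in D_7137, 3067 in D_7138, 2333 in D_7142, 1208 in D_7143 and 3404 in D_7146. The groups did not overlap, and the lowest DAAO library, D_7143, still stood 4.38 times above the highest CTL library, C_7121. The group means were 199.6 ± 56.0 and 2569 ± 809 (SD, n = 6 each), a 12.9-fold difference of means. The change on the log2 scale was 3.65 with an SE of 0.25 (limma adjusted p = 1.58e-06). C_7000 and C_7005 did not sit together for this gene, one being the lowest control and the other the next to highest.

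Among called genes with a mean of at least 1000 and groups apart, the largest fall was that of ENSRNOG00000009686, which reached that mean through the CTL libraries alone. Its normalized count was 1142 in C_7000, 667 in C_7005, 1609 in C_7118, 2574 in C_7120, 2059 in C_7121 and 2534 in C_7123. In the DAAO libraries it was 226 in D_7135, 232 in D_7137, 104 in D_7138, 441 in D_7142, 122 in D_7143 and 519 in D_7146. The groups did not overlap, but the margin was narrow: the lowest control, C_7005, stood 1.29 times above the highest DAAO library, D_7146. The group means were 1764 ± 768 and 274 ± 170 (SD, n = 6 each), and CTL was 6.44-fold higher by these means. The change on the log2 scale was -2.78 with an SE of 0.43 (limma adjusted p = 0.000334). When C_7000 and C_7005 were left out it was -3.22 (limma adjusted p = 7.32e-05). These libraries held the lowest control values of this gene. A larger fall without them was therefore fixed beforehand, and this refit is no further support for the fall.

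ENSRNOG00000014641 fell from a higher and more even control level. Its normalized count was 4072 in C_7000, 4851 in C_7005, 5442 in C_7118, 6159 in C_7120, 6087 in C_7121 and 7056 in C_7123. In the DAAO libraries it was 911 in D_7135, 1905 in D_7137, 495 in D_7138, 1614 in D_7142, 1438 in D_7143 and 645 in D_7146. The highest control was 1.73 times the lowest, whereas the highest DAAO library was 3.85 times the lowest. The groups did not overlap, with the lowest control 2.14 times above the highest DAAO library. The group means were 5611 ± 1057 and 1168 ± 567 (SD, n = 6 each), and the change on the log2 scale was -2.40 with an SE of 0.30 (limma adjusted p = 7.44e-05).

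**Figure D1:**
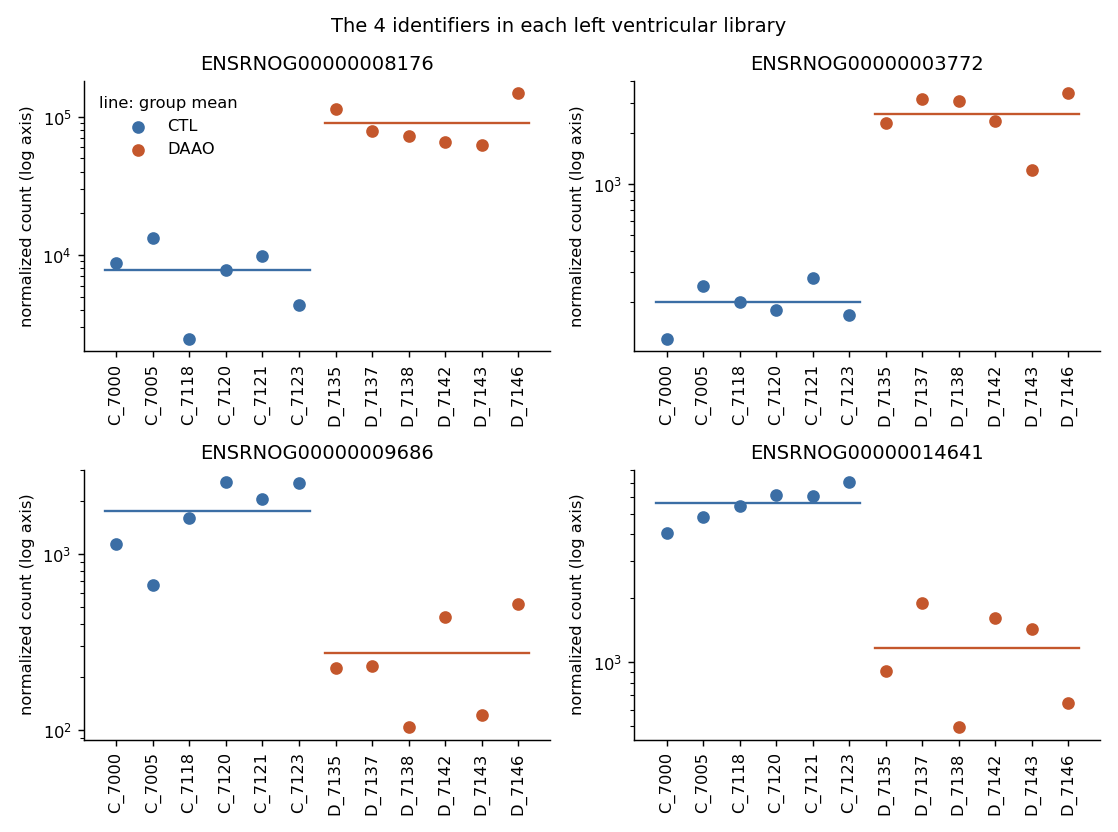
Normalized count of 4 genes in each of the 12 left ventricular libraries, on log axes, with CTL in blue, DAAO in orange and a line at each group mean. In all 4 panels the groups do not overlap, and the gap is narrowest for ENSRNOG00000009686, where C_7005 at 667 lies close to D_7146 at 519.

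The DAAO animals did not keep one order across these genes. D_7146 had the highest value of both ENSRNOG00000008176 and ENSRNOG00000003772, and D_7143 the lowest of both. D_7138 had the lowest value of both ENSRNOG00000009686 and ENSRNOG00000014641, while D_7146 had the highest value of the former and the second lowest of the latter. Thus the library with the highest levels of both rising genes was also the one in which ENSRNOG00000009686 had fallen least.

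These 4 genes are the extremes of a wider set at high level. Of the 2792 genes whose normalized count averaged at least 1000, 582 rose (20.8%) and 827 fell (29.6%), together 50.5% of them, against 37.3% of all genes tested. For 331 of the rises and 346 of the falls (11.9% and 12.4% of the 2792) every DAAO library lay on one side of every CTL library. Within these, 80 rose and 85 fell at least 2-fold (2.87% and 3.04% of the 2792), and 19 rose and 9 fell at least 4-fold (0.681% and 0.322%). The shares of separated genes over all genes tested were not counted, so these shares describe the 2792 genes only. Without C_7000 and C_7005 the separated genes numbered 519 rises and 809 falls, of which 138 and 146 were at least 2-fold. Without C_7005 alone the separated falls numbered 582. Groups that do not overlap still do not overlap when libraries are dropped, and C_7000 and C_7005 were singled out in these data. A gain of separated genes was therefore likely beforehand and is no further support for a group difference. When all libraries were scaled to equal totals, 1130 of the 2792 genes rose and 552 fell, 572 rises and 337 falls were separated, and 105 of these rises and 47 of these falls were at least 2-fold. The balance of rises and falls at high level therefore did not hold under that scaling.

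**Figure D2:**
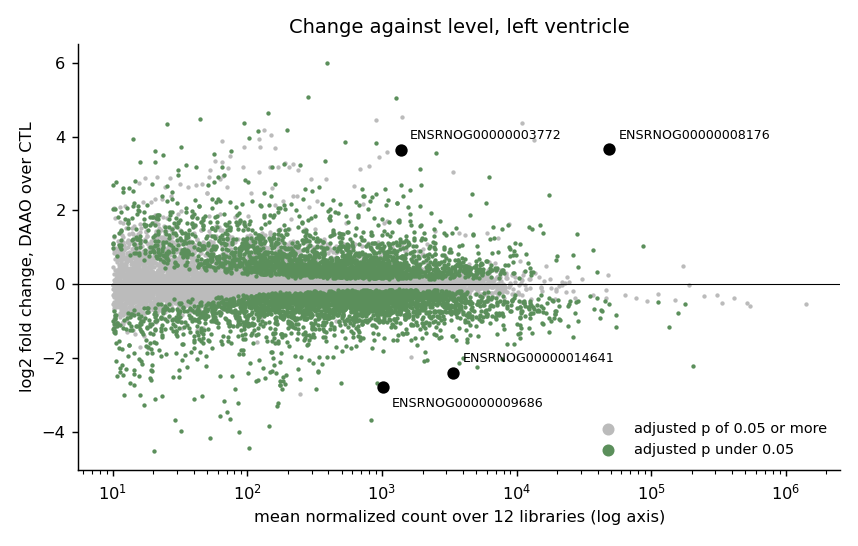
Log2 fold change (DAAO over CTL) of each of the 14041 genes against its mean normalized count over the 12 libraries (log axis), with called genes in green and the 4 identified genes as black points. ENSRNOG00000008176 stands alone among the black points at a mean of 48862, while the 3 others lie between 1019 and 3390.

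Losses of normalized count were concentrated in few genes and gains were spread over many. Summed over the tested genes, mean normalized counts came to 19180100 for the CTL group and to 16670000 for the DAAO group. The differences (DAAO minus CTL) summed to -4094310 over genes with a lower mean in DAAO and to 1584210 over genes with a higher mean. Without C_7000 and C_7005 these sums were -5317040 and 1822650. The 5 largest losses made up 31.9% of all losses and the largest alone 12.6%, whereas the 5 largest gains made up 14.5% of all gains. Ordered by size, 20 genes carried 50% of the losses and 153 genes carried 50% of the gains. Of those 20 genes 9 were called, and of the 153 genes 125 were called.

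Leaving out 1 library at a time gave 18 to 24 genes for 50% of the losses and 144 to 166 genes for 50% of the gains. For each such list of losses, calls were those of the fit to all 12 libraries and were not redone. By these calls, 14 of 24 genes were called in the list without C_7118 and likewise without C_7121. The count was 12 of 22 without D_7143, 11 of 21 without D_7135, and 10 of 19 without C_7120 and without D_7138. In the lists without each other library it was 50% or less. Whether most listed genes were called thus depends on which library the list leaves out. With equal totals 16 genes carried 50% of the losses and 296 carried 50% of the gains. Under that scaling the summed losses (-2546940) and gains (2544880) nearly balance by construction. The 10 most abundant genes held between 18.4% (D_7143) and 30.2% (C_7118) of all normalized counts in a library. The CTL libraries ranged from 21.5% (C_7005) to 30.2% and the DAAO libraries from 18.4% to 24.5% (D_7142), so the groups overlapped, and the overlap came from C_7005 and C_7000 (24.2%). The means were 26.6% ± 3.4 and 21.1% ± 2.5 (SD, n = 6 each, two-sided exact permutation p = 0.0152, Benjamini-Hochberg adjusted p = 0.0303 over 2 library measures). The difference (DAAO minus CTL) was -5.45 percentage points, and -7.31 without C_7000 and C_7005 (exact permutation, adjusted p = 0.0190). Since the overlap came from those libraries, the groups were bound to separate without them. That difference and its p are therefore no further support. With 1 library left out, the group difference lost the call without C_7118, C_7121, D_7135, D_7138, D_7143 or D_7146. The adjusted exact permutation p values were then from 0.0519 to 0.0736, with differences from -5.33 to -4.71.

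**Figure D3:**
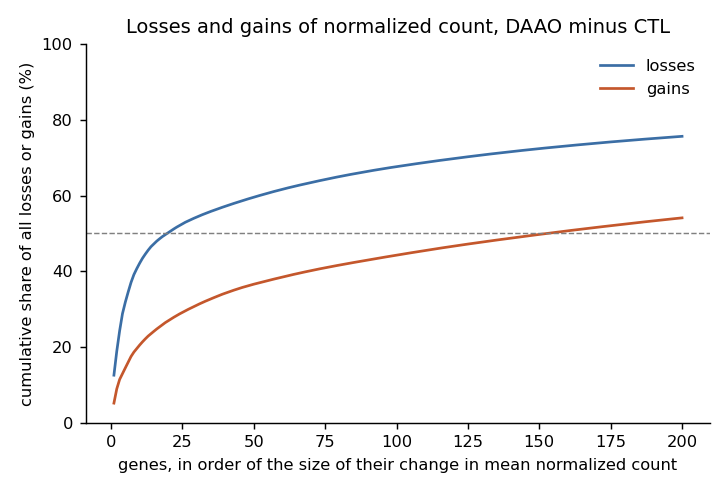
Cumulative share (%) of all losses (blue) and all gains (orange) in mean normalized count, DAAO minus CTL, against the number of genes, ordered from the largest change to the smallest. The dashed line at 50% is crossed at 20 genes for losses and at 153 genes for gains.

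How far each animal carried the group difference was measured on genes chosen without it. For each library in turn, limma was fitted to the 11 others, and the library left out was placed on the called genes along a line where the mean of the other CTL libraries is 0 and the mean of the other DAAO libraries is 1. All 6 DAAO libraries lay well toward the DAAO end. D_7138 stood at 1.12, D_7146 at 1.03, D_7135 at 0.98, D_7143 at 0.90, D_7137 at 0.78 and D_7142 at 0.69. On the genes called without it, each DAAO library lay on the DAAO side of the CTL mean for 94.3% (D_7142) to 99.3% (D_7135) of genes. The same share was 87.2% in C_7005 and 74.5% in C_7000, and 28.3% to 39.95% in the 4 other controls. It lay nearer to the DAAO than to the CTL mean for 70.7% (D_7142) to 93.3% (D_7135).

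The control libraries divided. C_7118, C_7120, C_7121 and C_7123 stood between -0.15 and -0.06. For each of them the mean of the other controls, set to 0, included C_7000 and C_7005. Whether this put them below 0 was not tested. C_7000 stood at 0.22 and was nearer to the DAAO mean for 21.5% of genes, against 5.80% to 7.92% in these 4. C_7005 stood at 0.69, level with D_7142, and was nearer to the DAAO mean for 58.1% of the 6471 genes called without it. The displacement of C_7005 was larger on genes that rose, where it stood at 0.82, than on genes that fell, where it stood at 0.48. C_7000 stood at 0.25 and 0.20 on the same classes. With equal totals C_7005 stood at 0.75 over all called genes, above D_7137 (0.73) and D_7142 (0.63). It then stood at 0.84 on rising and 0.37 on falling genes. Each library has its own set of called genes and its own 0 and 1, so positions of different libraries compare only roughly. In the DAAO libraries the widest gap under the deposited scaling was that of D_7138, at 1.04 on rising and 1.22 on falling genes, and 1.13 and 1.15 with equal totals. With equal totals the widest was that of D_7142, at 0.56 on rising and 0.87 on falling genes. D_7143 turned from 0.85 and 0.94 under the deposited scaling to 0.98 and 0.82 with equal totals. For D_7137 the order turned with the filter, from 0.77 and 0.80 to 0.84 and 0.77 when the minimum mean was 100.

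**Figure D4:**
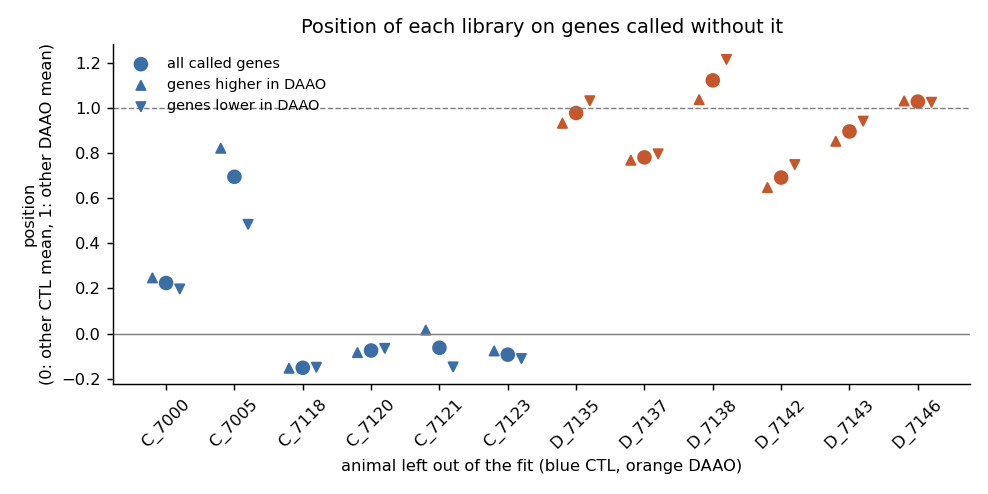
Position of each left ventricular library on the genes called when that library was left out, from 0 (mean of the other CTL libraries, solid line) to 1 (mean of the other DAAO libraries, dashed line), for all called genes (circles), genes higher in DAAO (upward triangles) and genes lower in DAAO (downward triangles). C_7005 at 0.69 is level with D_7142, while 4 controls lie just below 0.

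The median within-group spread was similar in the 2 groups. The median SD of a gene's log2 value over 6 libraries was 0.22 in CTL and 0.21 in DAAO, and 43.6% of genes varied more in DAAO. Among the 4 controls other than C_7000 and C_7005 the median SD was 0.16. Those libraries were left out because they stood apart, and no DAAO library was left out in the same way. Whether the source of the spread differs between the groups was therefore not tested. The first principal component of the log2 values held 55.1% of the variance and placed C_7118, C_7120, C_7121 and C_7123 between -62.4 and -53.0. C_7000 lay at -14.7 and C_7005 at 29.9, inside the DAAO range of -1.47 (D_7142) to 70.2 (D_7143). The second component held 15.7% and set D_7135, D_7137 and D_7142 (33.5, 34.8 and 39.0) apart from D_7138 (-2.26), D_7143 (-22.6) and D_7146 (12.9), with C_7005 lowest at -48.4. Every DAAO number is higher than every CTL number, so the group difference and anything else that follows the numbering cannot be told apart.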

How the data were processed

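Per the labels' protocols, Trizol was used to extract RNA from frozen hearts, and Novogene prepared the libraries and sequenced paired ends. The submitters' processing notes name STAR 2.7.0a, FastQC, DESeq2 1.26.0 and the build Rnor_6.0. Not given in the sources used here are the read counter, the annotation and the strand setting, so overlapping genes and near-identical copies are uncertain. The authors deposited a signal, normalized counts: each library's gene counts over its own size factor. Divided by the smallest value above 0 of its library, every value came out whole (100%, within 1e-06), and these quotients were taken as reads. The CTL libraries averaged 18393000 ± 2712030 recovered reads and the DAAO libraries 17619300 ± 1631270 (SD, n = 6 each, two-sided exact permutation p = 0.597). A gene near the filter rests on few reads per library and is less precisely measured.

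The main test was two-sided, with limma 3.58.1 (R 4.3.3) and its mean-variance trend, on log2(value + 1) of the 12 left ventricular libraries. The pseudocount makes the fold changes of low genes too small. No label says that animal numbers are separate rats, so p-values measure the spread between these samples. Library measures were tested over the 924 assignments of 12 libraries to 6 and 6. On the recovered reads edgeR 4.0.16 called 5230 genes and DESeq2 1.42.0 called 5564, leaving 20 adjusted p values undefined. The limma, edgeR and DESeq2 fits were tested on simulated data. The positions, the losses and gains, the separation of groups and the permutation tests were not. The simulated data held few changed genes and no library that stood apart. They therefore do not check the number of genes called here. The members, gene lists and tests were chosen with earlier results of these data known. Gene and cell type lists, fixed by symbol, were not analysed because no identifier could be paired with a symbol. Genes were then given by identifier, by the rule in the text. The right ventricular table was not used here.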

Additional observations from a re-analysis of the deposited data

How the results depend on the processing

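The 4 identified genes kept their direction and stayed called under all 21 alternatives: pseudocounts of 0.5 and 5, no filter, a mean of at least 100, equal totals, edgeR, DESeq2, robust limma, leaving out each library, and leaving out C_7000 and C_7005 together. Their log2 fold changes ranged from 3.37 to 3.99 for ENSRNOG00000008176, 3.52 to 3.85 for ENSRNOG00000003772, -3.22 to -2.55 for ENSRNOG00000009686 and -2.58 to -2.19 for ENSRNOG00000014641, and the highest adjusted p of any was 0.00125. The 4 genes were picked for large changes in these same libraries, so that they stayed called is no further support for those changes. Scaling every library to the same total gave 4325 genes higher and 1631 lower, against 2430 and 2805, and shifted the median change over all tested genes, on the log2 scale, from 0.01 to 0.21. Leaving out 1 library gave 4415 to 6471 called genes, 2036 to 3269 higher and 2372 to 3202 lower. The difference in recovered reads (DAAO minus CTL) ranged from -1379610 to 200464 when 1 library was left out, changing sign without C_7121, and stayed above the threshold (adjusted exact permutation p from 0.327 to 0.829). The difference in the share of the 10 most abundant genes ranged from -6.46 to -4.71 percentage points, and 6 of 12 such fits lost the call (highest adjusted exact permutation p = 0.0736). The alternatives for library measures, positions and losses or gains were chosen after seeing the data. No gene list could be computed, under any alternative. No paired analysis was possible because the CTL and DAAO groups of the left ventricle share no animal number.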
